A study of Danio rerio with 6 samples.

Results

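Batch B3 of a study of regenerating zebrafish caudal fins was compared with batches B1 and B2. The comparison sets 2 of 6 libraries, DMSO B3 and Galloflavin B3, against the other 4, with treatment as a covariate. Members were chosen by the batch named in the labels. Batch B3 was nevertheless singled out with its separate place on the first principal component of these data already known.

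The fish were wild-type AB adults, 3 to 12 months old and of both sexes in equal numbers. They were injected into the peritoneum with Galloflavin, an inhibitor of lactate dehydrogenase, dissolved in DMSO, at 0.12 mg per g of body weight. Controls received the solvent. After amputation they were kept at 33 °C, and regenerates were collected at 24 h together with 1 bony-ray segment of the stump. Each library came from a pool of 10 fins, and each batch held 1 DMSO and 1 Galloflavin library. What else distinguished one batch from another, such as a date, a stock of fish or an extraction, is not given in the labels.

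After amputation of a zebrafish fin, epidermal cells migrate over the wound and form a layered wound epidermis. Cells of the stump then lose part of their mature character, gather under that epidermis and divide as the blastema, from which bone and fin-fold skeleton are rebuilt. Migration and attachment depend on fibronectin and other matrix proteins, on the integrins that bind them, and on proteins that link integrins to actin. Because the tissue was sequenced in bulk, fewer cells of a type and less RNA per cell cannot be told apart.

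Values are the authors' normalised counts per gene. Differences are in log2(value + 1), B3 minus the mean of the other batches, with the standard error (SE). A gene was called at a limma adjusted p under 0.05. The 2 B3 libraries held 17712157 and 18064422 reads in genes, against 25332141 to 29596335 in the other 4. When all libraries were thinned to 17712157 reads, 294 genes were called in place of 308. Ribosomal protein genes took 7.35% and 7.44% of reads in B3 and 5.93% to 6.64% elsewhere, and their part in the results below was not tested. The fin identity of all 6 pools showed in hoxa13a (36.3 to 44.8) and hoxa13b (58.8 to 79.5), factors of the distal fin, and in the epidermal keratin gene krt5 (51797 to 70772). Of 4 liver, gut and yolk markers 0 reached a mean of 1, and of 8 skeletal muscle markers 2 did.

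Between B3 and the other batches, 308 of 15806 genes were called (1.95%), of which 70 were higher (0.443%) and 238 lower (1.51%) in B3. The lowest adjusted p was 0.00398. For 302 of the 308 the values in B3 and in the other 4 libraries did not overlap. All 308 differed in the same direction among the DMSO libraries and among the Galloflavin libraries. Both counts rest on the values that gave the calls, so they describe and do not support. Among all genes tested, 12% had both B3 libraries above the other 4 and 16.2% had both below. On reads recovered from the deposited values, edgeR called 171 genes (1.08%), all among the 308, and DESeq2 called 1073 (6.79%), which included all 308. The count rested on few libraries. It fell to 17 when DMSO B1 was left out and to 7 when DMSO B2 was. Leaving out either B3 library gave 0 calls by limma, with 2283 genes (DMSO B3 left out) or 1899 (Galloflavin B3 left out) at an unadjusted p under 0.05, and every list and family below then had 0 calls too. With all libraries 3281 genes (20.8%) were at that level, 7.84% higher and 12.9% lower.

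Compared separately, with both treatments together, B3 differed from B1 at an unadjusted limma p under 0.05 in 2491 genes (15.8%). It differed from B2 in 2290 (14.5%), whereas B2 differed from B1 in 386 (2.44%). With no difference that threshold would give a share of 0.05 on average, and the 2.44% lay below it. The comparisons share libraries and are not independent. Because B3 was singled out with its separate place already known, its larger counts follow in part from that choice. The median size of the difference was 0.18, 0.17 and 0.11 on the log2 scale. The numbers of genes differing by 2-fold or more were 301, 288 and 44. The small distance between B1 and B2 lay mainly in the DMSO libraries. With libraries thinned to equal reads, over 11757 genes with a mean of at least 5, the DMSO pair of B1 and B2 had 85 genes differing by 2-fold or more, against 302 and 228 for DMSO B3 with each. For Galloflavin the counts were 245, against 453 and 408, with median differences of 0.18, 0.20 and 0.20. Chi-square per degree of freedom was lower for Galloflavin B1 with Galloflavin B3 (38.9) than with Galloflavin B2 (46.0). This measure grows with depth and Galloflavin B3 had fewer reads than Galloflavin B2, so it does not show which was closer. After limma adjustment 7 (0.0443%), 5 (0.0316%) and 0 (0%) genes were called. With edgeR the counts were 2 (0.0127%), 6 (0.038%) and 0, and with DESeq2 they were 390 (2.52%), 395 (2.55%) and 3 (0.0368%). The genes gpc1a, fn1a, myadmb and ednrbb were called lower in B3 against B1 and against B2 by limma.

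**Figure D1:**
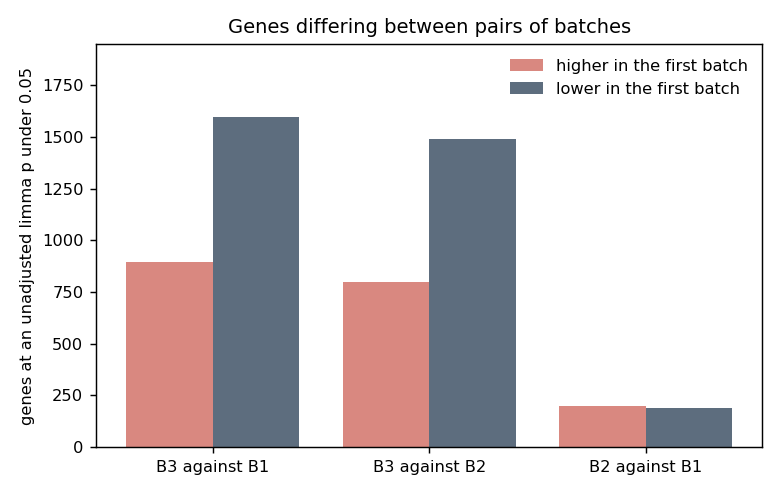
Bars count the genes, of 15806 tested, that differed between pairs of batches at an unadjusted limma p under 0.05, split into higher and lower in the first batch named. Batch B3 differed from B1 in 2491 genes and from B2 in 2290. For B2 against B1 the count was 386, below the share of 0.05 that this threshold would give on average with no difference. B3 was singled out with its separate place already known, so this order follows in part from that choice.

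Of the total sum of squares over all genes tested, 38.2% lay between B3 and the other batches and 21.9% between treatments, with a smaller share between B1 and B2. Each of these terms used the same number of degrees of freedom. The share of B3 follows in part from the choice of that batch with its separate place known. The share between B3 and the others was 63.2% for 19 markers of superficial and intermediate epidermis and 50.4% for 52 mitosis genes. For 51 DNA replication genes it was 20.6%, with 58.6% between treatments. It was 11.3% for heat shock genes and 13.3% for ribosome biogenesis genes.

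Some matrix and proteoglycan genes were among those called lower in B3. Fibronectin 1a (fn1a, ENSDARG00000019815) was at 2460.2 with DMSO and 2467 with Galloflavin in B1, at 2579.7 and 2596 in B2, and at 878 and 982 in B3. Values below follow this order, DMSO before Galloflavin in each batch. The 4 libraries of B1 and B2 lay close together and far above both B3 libraries, whichever treatment was given. The difference was -1.44 ± 0.09 (limma adjusted p = 0.00398, edgeR adjusted p = 0.0081). The heparan sulphate proteoglycan gene gpc1a stood at 29.9, 28.7, 28.3 and 22.3 in B1 and B2, and at 7.05 and 5.92 in B3, a difference of -1.91 ± 0.13 (limma adjusted p = 0.00496). Of 47 matrix genes tested, 4 were called lower (8.51% called) and 0 higher. Besides fn1a, these were vcanb, vcana and hapln1a, which encode versicans and the protein that links them to hyaluronan. Their differences were -1.26 ± 0.13, -0.98 ± 0.11 and -0.73 ± 0.10. The median of the list was -0.02, beside -0.01 over all genes. Of 10 glypican and syndecan genes, a family assembled after the values were seen, 2 were called lower (20% called), with a median of -0.08. Of these 10, 7 were below 0 and 3 above. The gene gpc1a was outside the matrix list. So was the thrombospondin gene thbs2b, which was called lower, at 67.8 to 95.1 in B1 and B2 and 27.6 and 22.6 in B3 (-1.59 ± 0.16).

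**Figure D2:**
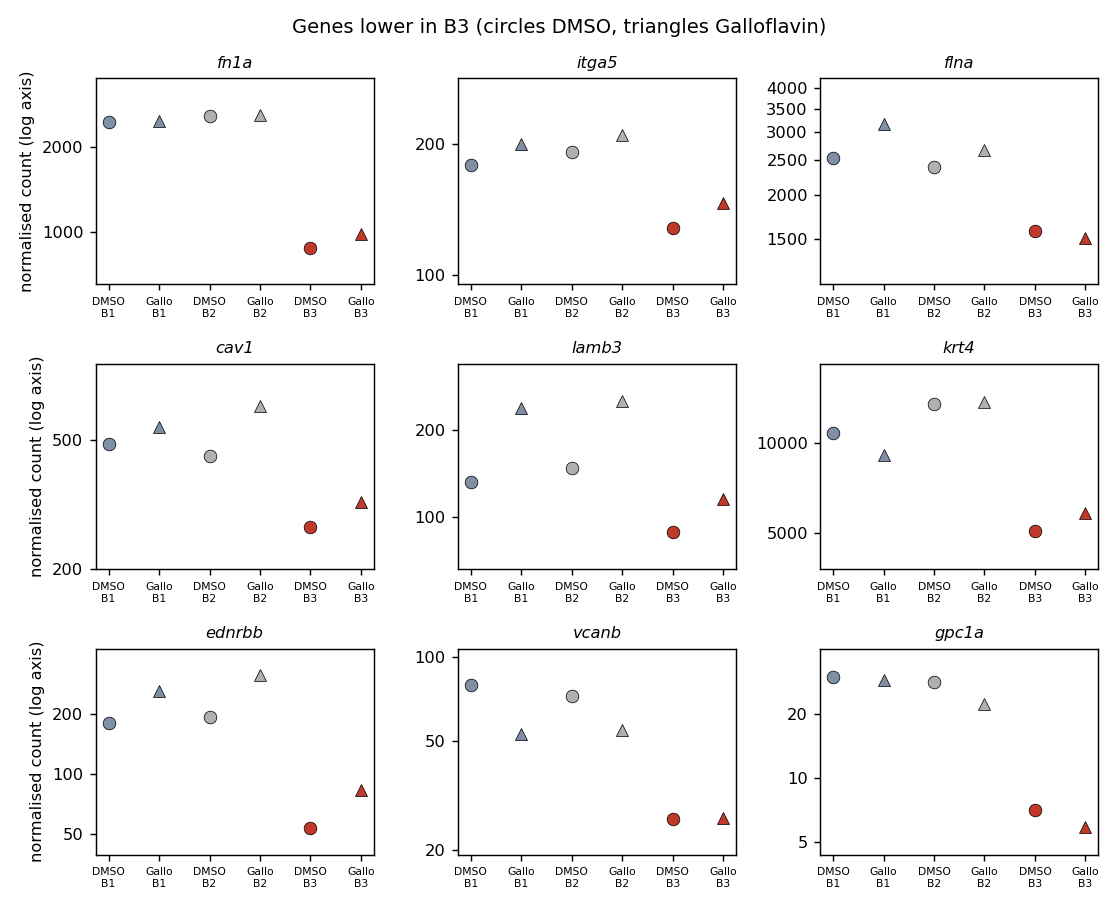
Each panel plots the normalised count of 1 gene in the 6 libraries on a log axis, with circles for DMSO, triangles for Galloflavin and B3 in red. In all 9 panels, chosen from genes called lower, both B3 libraries lie below the other 4. The gene fn1a is at 878 and 982 in B3 against 2460.2 to 2596.

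Genes for proteins that connect this matrix to the cytoskeleton were called lower as well. The families in this paragraph and the next were assembled from gene symbols after the values had been seen, so their counts describe and do not support. Integrins are the receptors for fibronectin and laminin. Of 26 tested 3 were called lower (11.5% called, beside 1.95% of all genes). Below 0 were 22, beside 8124 of all 15806, and the median difference was -0.37. The integrin median was -0.17 among the DMSO libraries and -0.54 among the Galloflavin libraries. The fibronectin receptor subunit genes itga5 and itga4 differed by -0.50 ± 0.08 and -1.22 ± 0.12, with itga5 at 179 to 209.8 in B1 and B2 and at 129 and 146 in B3. With edgeR itga4 was called (adjusted p = 0.0267) and itga5 was not (adjusted p = 0.0534). Of 33 genes for focal adhesion linkers, 7 were called lower (21.2% called) and 0 higher, with a median of -0.29. It was -0.23 with DMSO and -0.27 with Galloflavin. Among these linkers flna, which encodes the actin crosslinker filamin A, was at 2534, 3161, 2394 and 2675 in B1 and B2, and at 1578 and 1504 in B3. Its groups did not overlap, as for 302 of the 308 called genes, and the difference was -0.80 ± 0.11 (limma adjusted p = 0.0320). The focal adhesion kinase gene PTK2 (-0.87 ± 0.13) and the tensin gene tns1b (-0.98 ± 0.13) were called as well.

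The membrane pits called caveolae buffer tension and signalling at the cell surface. Of 6 genes for caveola proteins, cav1, cavin1b and ehd2b were called lower (50% called). The coat protein gene cav1 was at 484, 549, 446 and 636 in B1 and B2 and at 269 and 322 in B3, a difference of -0.83 ± 0.09 (limma adjusted p = 0.0183). Of 22 unconventional myosin genes, 2 were called lower (9.09% called, beside 1.95% of all genes). Below 0 were 21, beside 8124 of all 15806, with a median of -0.32 (-0.20 with DMSO and -0.43 with Galloflavin). Contact guidance genes included the called semaphorin and plexin genes sema3ab, plxnb1a and plxna2 and the ephrin and Eph genes efna3b, efnb1 and epha4l. The medians of these families were -0.20 over 38 genes (7.89% called) and -0.34 over 20 (15% called). Among the DMSO libraries they were -0.11 and -0.22, and among the Galloflavin libraries -0.31 and -0.43. Of 11 genes for 14-3-3 adaptor proteins, 3 were called lower (27.3% called) and 10 were below 0. With edgeR 0 of the 3 were called, and of the 3 called ephrin and Eph genes and the 3 called integrin genes 1 each was. Of 13 annexin and 24 Hox genes 0 were called by limma, with 4 of each at an unadjusted p under 0.05, beside 20.8% of all genes.

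Epidermal genes did not move as a block. Of 19 markers of superficial and intermediate epidermis, 4 were called lower (21.1% called) and 0 higher. The surface keratin gene krt4 was at 10849 and 9087 in B1, 13578 and 13699 in B2, and 5080.0 and 5807 in B3. Both B3 libraries were below all others, and the difference was -1.10 ± 0.19 (limma adjusted p = 0.0464, edgeR adjusted p = 0.0568). The desmosome genes dspa and pkp1a, which hold keratinocytes together, differed by -0.67 ± 0.09 and -1.24 ± 0.13, and the keratin gene krt94 by -1.16 ± 0.21. Reads of the whole list were 3.45% to 4.70% of the total in B1 and B2, and 2.30% and 2.55% in B3. Without krt4 and krt94 the other 17 markers took 1.05% to 1.26% and 0.962% and 0.996%. Of the 19, 13 were below 0 and 6 above. At an unadjusted limma p under 0.05 were 8 lower and 3 higher, beside 12.9% and 7.84% of all genes. Counts of krt4 and krt94 may share reads among related keratin genes. The mucin gene muc5.2 of mucous cells was lower too, at 119 to 197 in B1 and B2 and 45.3 and 79.6 in B3 (-1.26 ± 0.13).

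Among 20 markers of basal epidermis, the layer on the basement membrane, 4 were called lower and 1 higher (25% called). Of the 20, 12 were below 0 and 8 above. The median was -0.10, with 0.04 among the DMSO libraries and -0.20 among the Galloflavin libraries. The laminin chain gene lamb3, whose product helps to anchor basal cells, was at 132, 238, 148 and 251 in B1 and B2, and at 88.8 and 115 in B3. Galloflavin values were above DMSO values in every batch, and both B3 values were below the other 4. The difference was -0.86 ± 0.12 (limma adjusted p = 0.0289), and that of the keratin gene krt15 was -0.84 ± 0.12. The hemidesmosome collagen gene col17a1b and the plectin gene plecb, outside that list, were called lower at -0.65 ± 0.10 and -0.59 ± 0.08. In contrast krtt1c19e, a keratin gene of basal cells, was at 14.3, 18.9, 20.8 and 14.5 in B1 and B2, and at 113 in DMSO B3 and 40.8 in Galloflavin B3 (1.94 ± 0.32, limma adjusted p = 0.0398). The DMSO B3 value stood far above its Galloflavin partner. The genes krt5 (-0.27 ± 0.17) and tp63 (-0.13 ± 0.09), also on the basal list, were not called, with limma adjusted p of 0.400 and 0.455. Of 12 laminin genes, a family assembled after the values were seen, 3 were called lower (25% called). Of these 12, 5 were above 0 and 7 below. Their median was -0.04, with 0.16 among the DMSO libraries and -0.23 among the Galloflavin libraries.

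Some genes of bone, scales and fin-fold skeleton were among the largest differences in the other direction, while the lists that hold them went both ways. The enamelin gene enam, of the secretory calcium-binding phosphoproteins that mineralised tissues deposit, was at 6.68, 2.78, 8.77 and 8.70 in B1 and B2, and at 42.0 and 23.2 in B3 (2.15 ± 0.35, limma adjusted p = 0.0398). Separation of both B3 libraries from the rest was a condition for naming this gene. The type X collagen gene col10a1b was at 46.6, 29.1, 47.3 and 67.1 in B1 and B2, and at 164 and 129.8 in B3 (1.66 ± 0.29, limma adjusted p = 0.0456). The related gene scpp1, at 2.18 to 4.54 in B1 and B2 and 8.16 and 8.85 in B3, and the fibrillar collagen gene col5a2b (0.99 ± 0.17) were also called higher. With edgeR, enam, col10a1b, scpp1 and col5a2b had adjusted p of 0.0518 to 0.0568. Of 44 collagen genes 2 were called higher and 1 lower (6.82% called), 21 were above 0 and 23 below, and the median was -0.03. Of 5 secretory phosphoprotein genes 3 were above 0 and 2 below. Both are families assembled after the values were seen. Of 16 osteoblast markers, scpp1 alone was called (6.25% called), and 10 were above 0 and 6 below. At an unadjusted limma p under 0.05 were 4 higher and 4 lower, beside 7.84% and 12.9% of all genes. The osteoblast factor sp7 was at 6.29 to 10.5 in B1 and B2 and 8.48 and 5.75 in B3. The actinodin gene and1, which encodes a protein of the fibres that stiffen the fin fold, was at 21.3 to 62.0 in B1 and B2 and at 150.5 and 123 in B3. It missed the threshold (1.65 ± 0.36, limma adjusted p = 0.0776). Both B3 libraries were above the other 4, as they were in 12% of all genes.

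Among 47 genes of blastema and fin outgrowth, msx2b alone was called (2.13% called), a share near the 1.95% of all genes. This homeobox gene belongs to the Msx family, known from fin regeneration, and was at 20.8, 19.5, 24.1 and 19.3 in B1 and B2, and at 45.2 and 33.2 in B3 (0.86 ± 0.11, limma adjusted p = 0.0266). Its relative dlx2b, outside the list, was called at 0.77 ± 0.13. The list's median was 0.13, with 0.24 among the DMSO libraries and 0.00 among the Galloflavin libraries. The matrix gene frem3, of a family that holds epidermis to dermis, was higher at 1.13 ± 0.16, at 19.9 to 31.0 in B1 and B2 and 70.7 and 38.0 in B3.

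**Figure D3:**
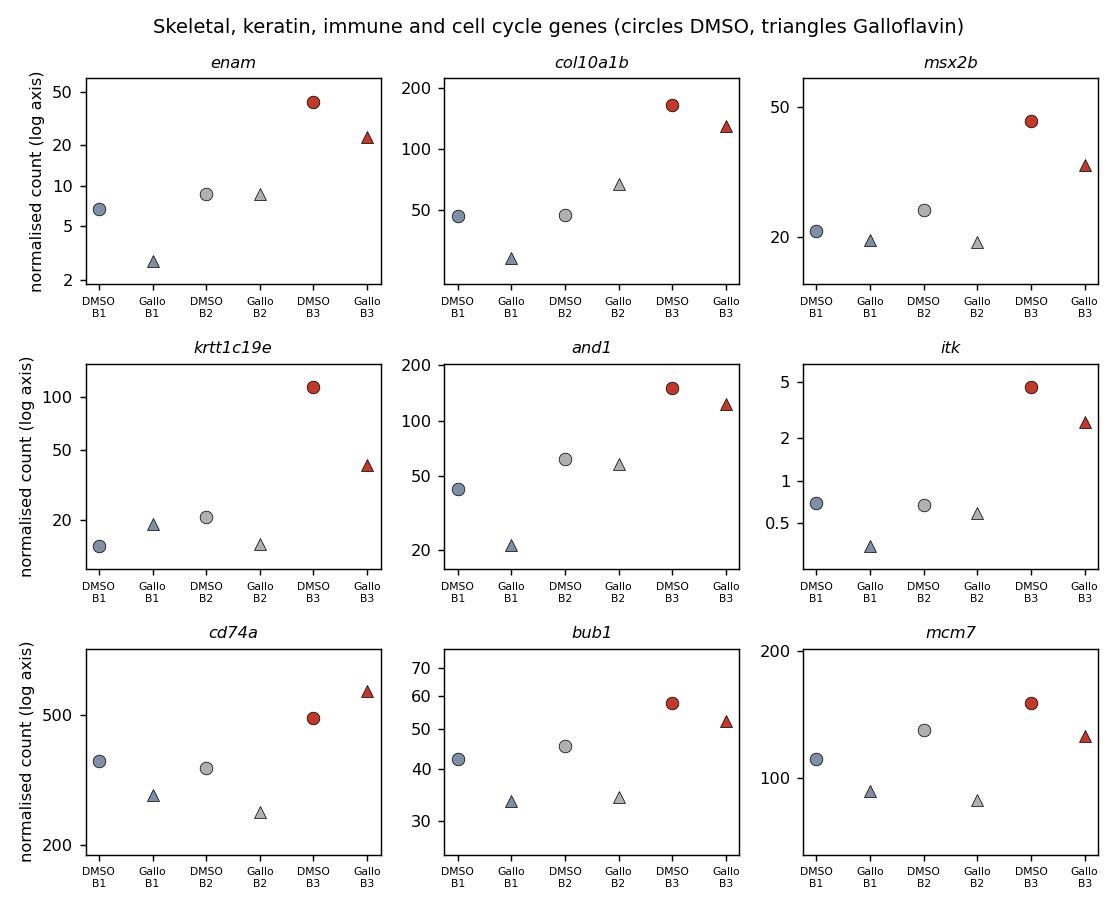
Each panel plots the normalised count of 1 gene in the 6 libraries on a log axis, with circles for DMSO, triangles for Galloflavin and B3 in red. The first 4 genes and itk were called higher in B3. The genes and1, cd74a, bub1 and mcm7 were not called, and the B3 and other values of mcm7 overlap.

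Genes of lymphocytes and antigen presentation included several with higher values in B3, some of them at low levels. The T cell kinase gene itk was at 0.699, 0.347, 0.677 and 0.588 in B1 and B2, and at 4.56 and 2.60 in B3 (1.51 ± 0.17, limma adjusted p = 0.0193). The cytokine receptor gene il7r was called at 1.12 ± 0.16. The chemokine receptor gene ccr9a, outside the list, was called at 0.92 ± 0.17, though not with edgeR (adjusted p = 0.0547). It was 1 of 36 genes for chemokines and receptors (2.78% called), a share near the 1.95% of all genes. The genes itk and il7r were 2 of 12 T and NK cell markers tested (16.7% called), 9 of which were above 0. The summed level of the 12 was 122 and 131 in B3 and 133 to 171 elsewhere, and the T cell kinase gene lck was at 3.86 to 6.46 in B1 and B2 and 5.67 and 4.40 in B3. The class I gene mhc1lla was at 0.118 to 0.386 in B1 and B2 and at 2.86 and 3.04 in B3, close to the level of a few reads in the former. The class II gene mhc2dhb (0.78 ± 0.11) and the peptide-loading gene tapbp.1 (0.80 ± 0.13) were called, while the invariant chain gene cd74a was not (0.80 ± 0.15, limma adjusted p = 0.0550). Of 15 antigen presentation genes 1 was called (6.67%), with a median of 0.05 among the DMSO libraries and 0.47 among the Galloflavin libraries. Of 29 MHC genes, a family assembled after the values were seen, 2 were called (6.9%), with medians of 0.07 and 0.33. MHC genes differ between individual fish and share sequence, so their counts are uncertain. Of 15 neutrophil and 21 macrophage markers, 0 were called by limma, with 4 and 5 at an unadjusted p under 0.05, beside 20.8% of all genes.

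Genes of cell division had higher values in B3 without any passing. Of 52 mitosis genes, 0 were called by limma and 52 were above 0, beside 7682 of all 15806, with a median of 0.30. At an unadjusted limma p under 0.05 were 32, all higher, beside 7.84% of all genes. In 31 of the 52 (59.6%) both B3 libraries were above the other 4, beside 12% of all genes. The spindle checkpoint kinase gene bub1 was at 42.2, 33.5, 45.4 and 34.1 in B1 and B2, and at 57.7 and 52.0 in B3 (0.50 ± 0.09, limma adjusted p = 0.0545). Galloflavin was below DMSO in all 3 batches, and B3 was above both other batches. The median was 0.25 among the DMSO libraries and 0.33 among the Galloflavin libraries. The 51 DNA replication genes had a median of 0.12 and 0 called. At an unadjusted p under 0.05 were 7 higher and 1 lower, beside 20.8% of all genes in either direction. Of 77 ribosomal protein genes, 68 were above 0 and 0 were called, with a median of 0.14. At an unadjusted limma p under 0.05 were 23, all higher, beside 7.84% of all genes.

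The 22 glycolysis genes had the lowest median of the programme and cell type lists with at least 5 genes tested, -0.66. Of these, 20 were below 0 and 0 were called by limma. At an unadjusted limma p under 0.05 were 6 lower and 2 higher, beside 12.9% and 7.84% of all genes. The pyruvate kinase gene pkma was at 591, 900.0, 552 and 1363 in B1 and B2, and at 351 and 381 in B3 (-1.12 ± 0.22, limma adjusted p = 0.0631). Galloflavin B2 was the highest library and both B3 libraries the lowest. The median of the list was -0.33 among the DMSO libraries, -1.05 among the Galloflavin libraries and -0.37 without Galloflavin B2. Of 27 hypoxia response genes, the glucose transporter gene slc2a1b (86.6 to 154 in B1 and B2, 46.7 and 43.2 in B3) and the carbonic anhydrase gene ca9 (-1.14 ± 0.20) were called lower (7.41% called). With edgeR neither was called (adjusted p = 0.0634 for both). The list's median was -0.40, and -0.18 without Galloflavin B2. The prolyl hydroxylase gene egln2, whose protein marks hypoxia-inducible factors for degradation, was lower at -1.74 ± 0.23.

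All 13 genes encoded by the mitochondrial genome were below 0, with a median of -0.27 and ND4L called (-0.51 ± 0.09). They took 1.15% and 1.27% of reads in B3 and 1.23% to 1.42% elsewhere. The 81 nuclear-encoded respiratory chain genes had a median of 0.00 and 0 called by limma. At an unadjusted limma p under 0.05 were 5, beside 20.8% of all genes. Single genes were called in other lists: the p53 target sesn1 (0.59 ± 0.10), the vessel gene plvapb (0.49 ± 0.09), the kinase gene src (-0.73 ± 0.10) among osteoclast markers, and the cryptochrome gene cry3a (-0.69 ± 0.11) of the circadian clock. The lists of sesn1, plvapb and src held 24, 23 and 8 tested genes, of which 13, 14 and 4 were above 0. With edgeR ND4L, sesn1 and plvapb were not called, with adjusted p of 0.0689, 0.0549 and 0.0541. The call of cry3a was 1 of 37 clock genes, a share near the 1.95% of all genes. The integrated stress response (28 genes), heat shock (27), unfolded protein response (22) and interferon response (22) had 0 called. At an unadjusted limma p under 0.05 they had 10, 1, 1 and 3 genes, beside 20.8% of all genes. Of the integrated stress response genes 20 were below 0. In 12 of them (42.9%) both B3 libraries were below the other 4, beside 16.2% of all genes. Above 0 were 20 heat shock, 21 unfolded protein response and 10 interferon response genes.

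**Figure D4:**
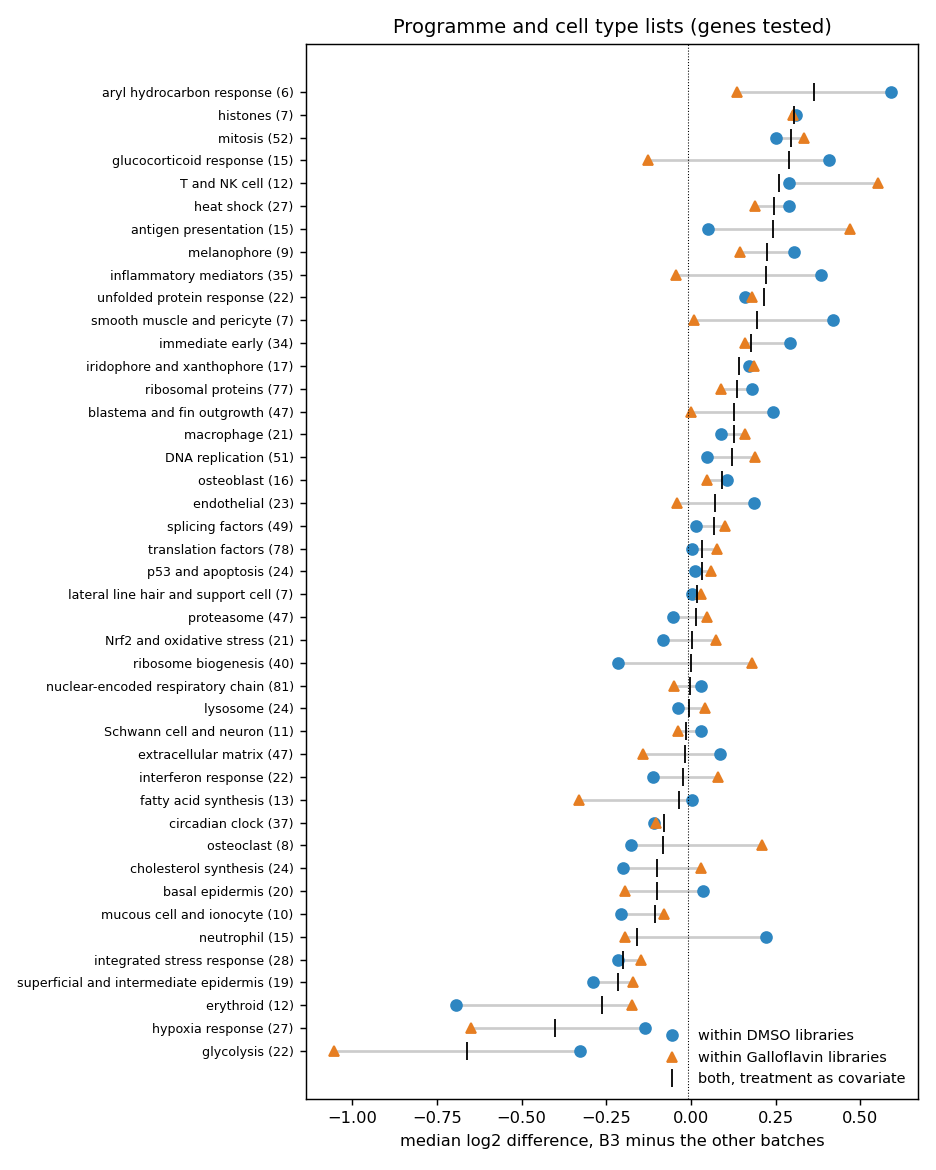
Points give the median log2 difference, B3 minus the other batches, of each programme or cell type list within the DMSO libraries (circles) and within the Galloflavin libraries (triangles), with black marks for both together and the number of genes tested in brackets. Mitosis and histone genes lie at like positive values under both treatments, while glycolysis was at -0.33 with DMSO and -1.05 with Galloflavin.

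The largest single differences outside these groups covered many functions. Among genes higher in B3 were sult5a1, a sulphotransferase gene (2.09 ± 0.30), and zfand5a, a zinc finger gene (1.06 ± 0.16). The genes wipf1a, grna.2, sts, prss60.3, atp1b3a and klf8 were higher by 0.82 to 1.18. Separation of both B3 libraries from the other 4 was a condition for naming them. The endothelin receptor gene ednrbb was at 179 and 192 with DMSO and 258 and 313 with Galloflavin in B1 and B2, and at 53.4 and 83.2 in B3. Its difference was -1.77 ± 0.10 (limma adjusted p = 0.00398), and the Galloflavin value exceeded the DMSO value in each batch. The small GTPase gene gem was at 13.9, 5.25, 15.1 and 8.23 in B1 and B2, and at 2.07 and 2.01 in B3 (-1.84 ± 0.26). The protease gene adamts8a (-1.52 ± 0.17), the signalling adaptor gene grb10a (-1.53 ± 0.17) and the receptor kinase gene mst1rb (-1.48 ± 0.18) were lower. So were dachb, tppp3, arhgap46b, peli1a and myadmb, with differences of -1.67 to -1.46.

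Whether the B3 difference was the same under both treatments was tested as an interaction. No gene was called by limma (lowest adjusted p = 0.904, 800 genes or 5.06% at an unadjusted p under 0.05), 0 by edgeR and 14 (0.0921%) by DESeq2. With no difference, that unadjusted threshold would give a share of 0.05 on average. With all libraries thinned to the same number of reads, 77 of 11757 genes with a mean of at least 5 differed by 2-fold or more between Galloflavin and DMSO in B3, against 242 in B1 and 285 in B2. Each of these is a difference of 1 library from 1 other, with no replicate check. Of all 15 pairs the B3 libraries had the lowest chi-square per degree of freedom, 11.13 against 13.1 to 58.0. That measure grows with depth, and the B3 libraries had the fewest reads, so it does not show that they were the closest pair. With thinned libraries the median difference was 0.15 for the B3 pair and 0.12 between DMSO B1 and DMSO B2. The genes at 2-fold or more numbered 77 and 85.

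The genes with the lowest unadjusted p for the interaction had differences between Galloflavin and DMSO in B1 and B2 that were absent or opposite in B3. The chemokine gene ccl19a.2 was at 109 with DMSO and 36.4 with Galloflavin in B1, 106 and 46.6 in B2, and 129 and 206 in B3. The inflammatory cytokine gene il1b was at 16.1 and 47.3 in B1, 19.2 and 56.3 in B2, and 81.2 and 55.5 in B3. For il1b the DMSO library of B3 was above all others, and the Galloflavin libraries of the 3 batches lay close together. The transcription factor gene zbtb16a was at 22.8 and 64.4, 28.9 and 67.6, and 65.6 and 45.4. The cysteine dioxygenase gene cdo1 was at 42.6 and 111, 48.6 and 125, and 91.1 and 89.3. The fatty acid binding gene fabp1b.2 was at 10.6 and 4.21, 17.4 and 4.58, and 25.1 and 73.5. These 5 genes were chosen for this pattern, so it is a description, and none passed adjustment.

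**Figure D5:**
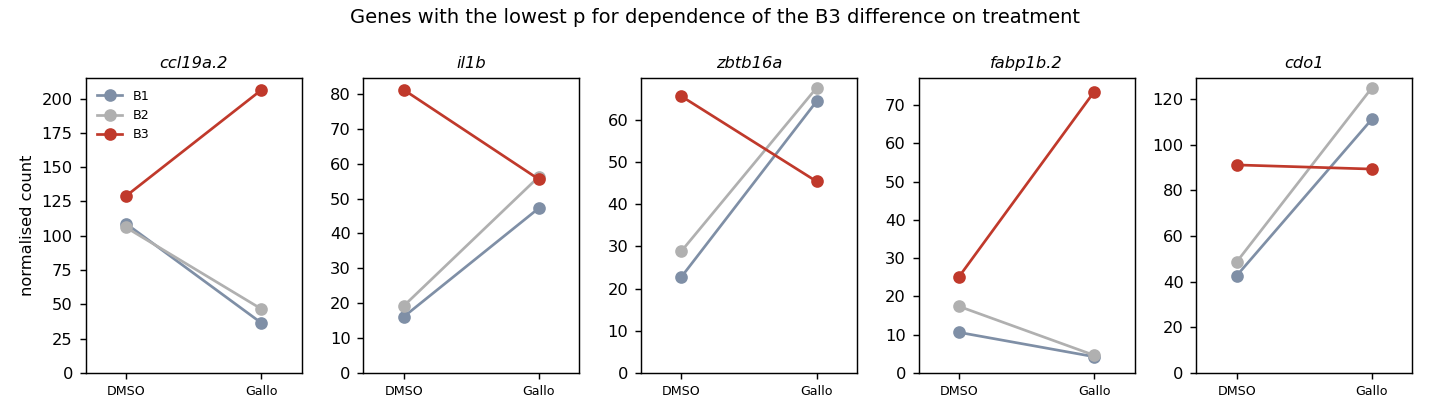
Lines join the DMSO and Galloflavin normalised counts of each batch for the 5 genes with the lowest unadjusted p for dependence of the B3 difference on treatment. The genes were chosen for lines of B3 that are flat or run against those of B1 and B2, and no gene passed adjustment.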

How the data were processed

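Poly(A) RNA was sequenced from 6 pools, and batch and treatment were taken from the labels. The aligner STAR 2.7.10a and the GRCz11 build are named in the submitters' processing notes. How reads were counted and normalised is not given in the sources used here. As a signal, the authors deposited the normalised count of each of 19822 genes in each library. Values were whole multiples of the smallest non-zero one, so reads could be recovered by division (100% of values came within 0.01 of a whole read). A normalised count of 0.102 to 0.163 corresponded to 3 reads, which a gene at 0 may have had, counting error only. Symbols were in the table or, for 1485 of 2175 identifiers without one, from a name table. No coordinates or sequences are given because no genome of this build was used here. No source says whether strand was used in counting, which leaves overlapping and antisense genes uncertain.

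The test was that of limma 3.58.1 (R 4.3.3) on log2(value + 1) of the deposited values, two-sided, with a mean trend and Benjamini-Hochberg adjustment at 0.05, for 15806 genes with a mean of at least 1. This scale understates changes of low genes. All 6 libraries entered with B3 and treatment as terms. Separate fits used 3 batch levels or an interaction. The labels call the pools biological replicates. A batch holds 2 pools of different treatment, so p-values rest on few pools and no treatment is replicated within a batch. The fit treats the 2 B3 libraries as independent although they share 1 batch, and the comparison is of 1 batch with 2. Its spread comes from the difference of B1 from B2 and from treatment differences that vary between batches, not from replicate pools. The script was tested on simulated data. Alternatives included edgeR 4.0.16, DESeq2 1.42.0, other filters and scalings, and each library left out.

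The genes named were the 15 largest called differences in each direction with a mean of at least 5, both B3 libraries on 1 side of the other 4 and a name other than a clone name. To these were added up to 4 called genes per list, or the 2 lowest p where none was called, and 5 genes for dependence on treatment. Other genes (hoxa13a, hoxa13b, krt5, tp63, sp7, lck) were chosen after their values were seen. Batches, lists and rule were chosen with earlier results of these data known. The families were added after the values were seen. Some named genes are not reported here.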

Additional observations from a re-analysis of the deposited data

Results flagged for a closer look

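Within the 4 libraries of B1 and B2, 214 genes and lists were looked at and 10 had 1 library far from the other 3, where chance alone would give about 1 in 20. The genes were col5a2b in Galloflavin B2 (26.0, highest), adamts8a in DMSO B1 (34.1, lowest), slc2a1b in Galloflavin B2 (154, highest), itgb3b in Galloflavin B1 (70.0, highest), PTK2 in DMSO B2 (74.7, highest) and ywhaqa in Galloflavin B1 (302, lowest). The lists, as mean centred log2 values, were p53 and apoptosis in DMSO B1 (-0.23), aryl hydrocarbon response in Galloflavin B2 (0.11), osteoblast in Galloflavin B2 (0.16) and 14-3-3 proteins in Galloflavin B1 (-0.067).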

How the results depend on the processing

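The 308 calls between B3 and the other batches became 171 with edgeR, 1073 with DESeq2, 995 at an adjusted p under 0.1, 6 at 0.01, 157 without the treatment covariate and 117 with 3 batch levels. Leaving out 1 library gave 0 to 398. Without a B3 library the fit had 1 library on that side, assumed to vary like the others. With other scalings, filters and pseudocounts the count stayed within 1.5 times, and the median of all genes was at most 0.03 from 0. For B3 against B1, 7 calls became 14 with no filter, 4 at a minimum mean of 5, 3 with median-of-ratios scaling, 2 with edgeR, 390 with DESeq2, 91 at 0.1 and 0 at 0.01, and 0 to 218 without 1 library. For B3 against B2, 5 became 16 with no filter, 8 with upper-quartile scaling, 8 with quantile normalization, 395 with DESeq2, 15 with robust moderation, 155 at 0.1 and 0 at 0.01, and 0 to 284 without 1 library. For B2 against B1, 0 became 3 with DESeq2 and 0 to 19 without 1 library. The interaction gave 14 with DESeq2. Of the 150 names, 79 were called, and 0 of these reversed in any alternative. With 1 library left out, the difference ran from -0.090 to 0.33 for smyd1b, -0.53 to 1.32 for zbtb16a and -0.40 to 0.99 for cdo1, and it reversed only without DMSO B3. The causes were not tested. No paired analysis was possible because batch is the comparison itself and treatment is already a term of the fit.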
